A study of Drosophila melanogaster with 16 samples.

Results

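Insect odorant-binding proteins are small secreted proteins made by the support cells that wrap the olfactory neurons of a sensory hair, or sensillum. They fill the sensillum lymph, the fluid that an odorant crosses on its way to the receptors, and are held to carry or buffer odorants there. The 7 genes described here are odorant-binding protein genes known for abundant expression in the *Drosophila* antenna, together with a10, which encodes an antennal secreted protein of the separate OS-D (chemosensory protein) family. They were taken by gene name or CG number from the array annotation as Obp19d (CG1668), Obp28a (CG6641), Obp83a (CG11421), Obp83b (CG11422), lush (CG8807), Obp84a (CG1176) and a10 (CG6642), and are 7 of 13186 genes that the probes could be matched to, beside 11294 probes matched to no gene. The arrays named 5 of them Pbprp2, Pbprp5, Pbprp3, Os-E and Pbprp4, in the order Obp19d, Obp28a, Obp83a, Obp83b and Obp84a.

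The study asked how food deprivation changes gene expression in the antenna and the brain of female *Drosophila melanogaster*. The 4 groups were antennae labelled 28 h starved, antennae labelled fed (0 h of starvation), brains labelled 28 h starved and brains labelled fed, with 4 one-colour Agilent arrays in each. Flies were 5 to 7 days old by the labels, which give no strain or genotype for any group. By the methods, flies had been kept on an odor-reduced medium, starved flies had moist tissue only, and fed flies had sucrose. Each extract held 100 antennae or 50 brains from 50 flies, so that fewer cells of a type and less RNA per cell cannot be told apart. Nothing in the labels says that the 4 extracts of a group came from separate cultures, and the p-values measure only the spread between these extracts.

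Values are log2 signals relative to the 75th percentile of the array, and "called" means an adjusted p below 0.05 (limma, Benjamini-Hochberg over all tested probes). Between 65.4% and 73.6% of spots stood well above background on an array. Each of 4 slides carried 1 array of every group, always at the same place for a group, so that place on the slide and group cannot be told apart. Genes with a known response to feeding went against the labels, and the direction read from the labels is also opposite to the one the study gives for allatostatin in the antenna. Pepck1, a gluconeogenesis gene induced by starvation, was lower in arrays labelled starved than in arrays labelled fed, by a log2 difference of -2.97 ± 0.25 (SE) in antennae and -3.13 ± 0.33 in brain. Thor, the translation inhibitor that starvation induces, differed by -0.81 and -0.73, and sug, a transcription factor gene induced by sugar, by 1.65 and 2.94, all of them called. The labels were kept as given, and every direction below is the direction of the labels. Were the labels exchanged, it would turn round.

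All 7 genes were well above background on 16 of 16 arrays, and no spot was saturated, the brightest member spot of an array lying between 0.526% and 42.0% of the saturation level. Whether probes levelled off below that level at the high antennal signals was not tested. They were measured by 9 probes, 1 each for 5 genes and 2 each for Obp28a and a10. For these the probe with the higher mean over all 16 arrays is reported first. In antennae alone the other probe was the brighter for a10 under both labels, and for Obp28a in arrays labelled fed (7.88 against 7.73). Levels of different genes come from different probes and are not set against each other.

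Antennal levels were far above brain levels for every gene. Obp19d, made in olfactory and taste organs, had log2 levels of 8.25, 8.34, 8.38 and 8.17 in antennae labelled starved and 7.84, 7.90, 8.21 and 8.20 in antennae labelled fed, against 2.29, 1.97, 2.75 and 2.15 in brains labelled starved and 1.5, 1.31, 0.65 and 1.71 in brains labelled fed. The antennal arrays overlapped between conditions, and the brain arrays did not. Obp28a, an abundant protein of basiconic sensilla, had 7.92, 8.03, 8.24 and 7.78 in antennae labelled starved and 7.46, 7.70, 7.81 and 7.94 in antennae labelled fed, against 2.07, 1.31, 1.97 and 1.93 in brains labelled starved and 1.06, 1.26, 0.41 and 1.67 in brains labelled fed. Its arrays overlapped between conditions in both tissues.

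**Figure D1:**
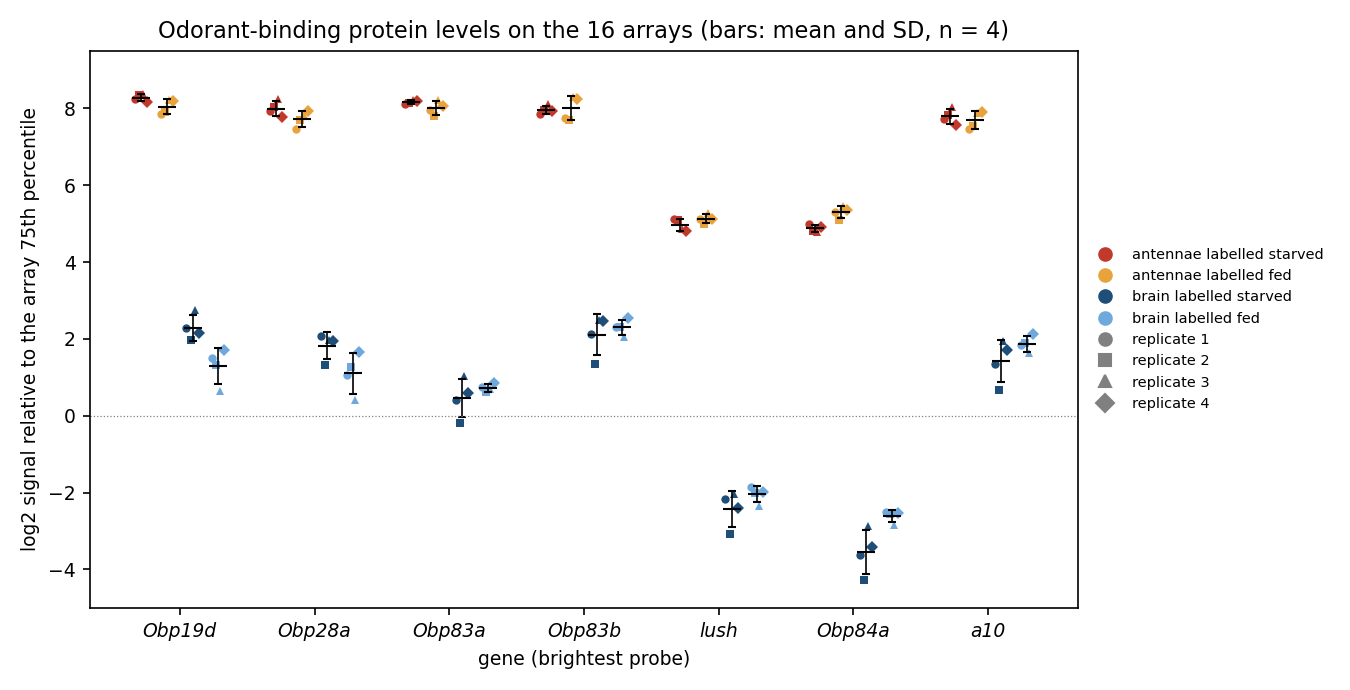
Log2 signal relative to the array's 75th percentile (vertical axis) for each gene's brightest probe, with 1 point per array, shaped by replicate number; bars give the mean and SD of 4 arrays. The antennal arrays of every gene lie above its brain arrays, and the square, replicate 2 of the brains labelled starved, is the lowest of its group for all 7 genes.

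Obp83a and Obp83b are neighbouring genes on chromosome arm 3R and encode the proteins OS-F and OS-E, which are made together in trichoid sensilla. Obp83a had 8.12, 8.13, 8.21 and 8.19 in antennae labelled starved and 7.95, 7.80, 8.21 and 8.07 in antennae labelled fed, against 0.41, -0.19, 1.03 and 0.59 in brains labelled starved and 0.75, 0.61, 0.70 and 0.86 in brains labelled fed. Obp83b had 7.85, 7.95, 8.10 and 7.93 in antennae labelled starved and 7.75, 7.71, 8.29 and 8.25 in antennae labelled fed, against 2.14, 1.34, 2.49 and 2.46 in brains labelled starved and 2.30, 2.31, 2.04 and 2.54 in brains labelled fed. For both genes the conditions overlapped in both tissues, and cross-hybridisation between these related transcripts was not tested. A further probe that only an older name ties to Obp83a had log2 levels of 8.16, 8.28, 8.35 and 7.92 in antennae labelled starved and 7.72, 7.87, 8.16 and 8.36 in antennae labelled fed. A probe tied to Obp83b only by an older name was above background on 0 of 16 arrays, with means of -8.71 in antennae under both labels, and was not used.

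lush encodes the binding protein that trichoid sensilla need for a normal response to the pheromone cis-vaccenyl acetate. It had log2 levels of 5.13, 5.09, 4.85 and 4.82 in antennae labelled starved and 5.13, 4.98, 5.27 and 5.12 in antennae labelled fed, against -2.18, -3.08, -2.03 and -2.40 in brains labelled starved and -1.86, -2.0, -2.34 and -1.97 in brains labelled fed. The conditions overlapped in both tissues. Obp84a, known from coeloconic sensilla, had 4.98, 4.81, 4.79 and 4.92 in antennae labelled starved and 5.31, 5.11, 5.45 and 5.35 in antennae labelled fed, against -3.63, -4.26, -2.87 and -3.42 in brains labelled starved and -2.5, -2.57, -2.84 and -2.54 in brains labelled fed. Among the 7 genes it alone had separate conditions in both tissues, with the arrays labelled starved lower each time. Of all probes tested, 31.9% had separate conditions in antennae and 32.6% in brain. The share of probes separate in both tissues was not counted. The OS-D protein gene a10 had 7.71, 7.83, 8.05 and 7.58 in antennae labelled starved and 7.47, 7.54, 7.87 and 7.92 in antennae labelled fed, against 1.36, 0.68, 1.94 and 1.71 in brains labelled starved and 1.84, 1.90, 1.63 and 2.13 in brains labelled fed, overlapping in both tissues.

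In antennae, 1 of the 7 genes changed with the labelled condition. Obp84a averaged 4.88 ± 0.09 in antennae labelled starved and 5.30 ± 0.15 in antennae labelled fed (SD, n = 4 each), a log2 difference of -0.43 ± 0.09 (SE, limma adjusted p = 0.00957), or 1.35-fold lower. Its difference was negative on all 4 slides, at -0.33, -0.30, -0.66 and -0.43. The exact permutation test over the arrays gave p = 0.0286, two-sided, which is the smallest that 4 against 4 arrays allow. Among the 20587 probes tested, 29.5% were called in either direction (10.3% higher and 19.2% lower) and 31.9% had groups that did not overlap (12.5% higher and 19.4% lower), so a count of 1 in 7 does not exceed that of all probes.

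The other 6 genes did not pass. Their differences were 0.24 ± 0.10 for Obp19d (adjusted p = 0.106), 0.26 ± 0.13 for Obp28a (0.154), 0.16 ± 0.09 for Obp83a (0.224), -0.04 ± 0.15 for Obp83b (0.843), -0.15 ± 0.10 for lush (0.259) and 0.09 ± 0.14 for a10 (0.629; SE, limma). The median over the 7 genes was 0.09, beside -0.04 over all probes tested. The other probe of Obp28a gave 0.05 and that of a10 0.03. Obp19d was higher in the array labelled starved on 3 of 4 slides, with differences of 0.40, 0.44, 0.17 and -0.03.

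**Figure D2:**
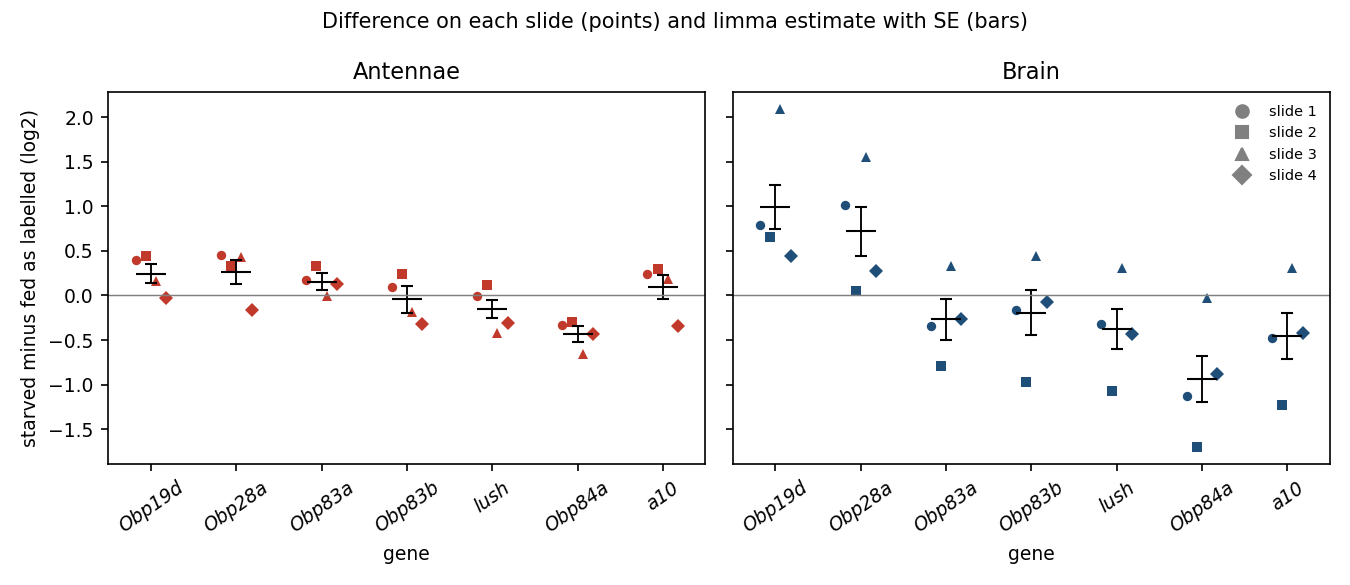
Log2 difference between the arrays labelled starved and fed on each slide (points, shaped by slide) and the limma estimate with its SE (bars) for antennae, left, and brain, right. Obp84a lies below 0 on all 4 slides in both tissues, and in brain Obp19d and Obp28a lie above 0 on all 4 slides.

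These small antennal differences depended on how the arrays were scaled. Centring each array on its median in place of its 75th percentile moved the median of all probes to 0.22 and the calls over all probes to 8450 higher and 1635 lower, against 2123 higher and 3944 lower as reported. With it Obp84a differed by -0.17 (adjusted p = 0.176), while Obp19d (0.50), Obp28a (0.52) and Obp83a (0.41) were called higher, and Obp83b and lush turned to 0.21 and 0.10. Quantile normalization gave 3278 higher and 2163 lower over all probes and kept the call of Obp84a, which was lost in a fit over all 16 arrays (adjusted p = 0.134).

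The level of a gene relative to the mean of the other 6 on the same array is not moved by 1 constant per array. Quantile normalization, which is no such constant, can move it. By that measure, chosen after the values were seen, Obp84a stood -2.84 to -2.49 from the others in antennae labelled starved and -2.23 to -1.96 in antennae labelled fed, a difference of -0.52 with no overlap. Obp19d (1.29 to 1.36 against 1.0 to 1.09) and Obp83a (1.124 to 1.325 against 0.935 to 1.123) did not overlap either, both higher in arrays labelled starved. The remaining genes overlapped, and no share over all probes was made for this measure. Relative differences of the 7 genes balance by construction, so these values describe a gene against the others and not each gene on its own.

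In brain, 2 of the 7 genes were called, in opposite directions. Obp19d averaged 2.29 ± 0.33 in brains labelled starved and 1.29 ± 0.46 in brains labelled fed (SD, n = 4 each), a log2 difference of 0.995 ± 0.25 (SE, limma adjusted p = 0.0186), or 1.99-fold higher. Obp84a averaged -3.55 ± 0.57 in brains labelled starved and -2.61 ± 0.15 in brains labelled fed (SD, n = 4 each), a difference of -0.93 ± 0.26 (SE, limma adjusted p = 0.0276), or 1.91-fold lower. For both the exact permutation p was 0.0286, two-sided. Of 21838 probes tested, 33% were called (11% higher and 22% lower) and 32.6% had groups that did not overlap (11.9% higher and 20.8% lower), which 2 of 7 does not exceed.

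The brain differences varied more between slides than the antennal ones. Obp19d was higher on all 4 slides, by 0.79, 0.66, 2.09 and 0.44, and Obp84a lower on all 4, at -1.13, -1.70, -0.03 and -0.88. With the slide as a block neither was called (adjusted p = 0.0616 for Obp19d and 0.0605 for Obp84a). Obp84a also lost its call without replicate 1 of the brains labelled starved (adjusted p = 0.0667) and without replicate 1 or replicate 2 of the brains labelled fed (0.0695 and 0.0635), while Obp19d was called in all 8 fits that left out 1 array. Over all probes the calls were 2404 higher and 4804 lower as reported, 4608 and 2251 with median centring, which moved the median of all probes to 0.18, and 2882 and 2788 with quantile normalization. Obp84a was not called with either (adjusted p = 0.0821 and 0.0876), nor with the methods' t-test (0.0637), and Obp19d was called with all 3.

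Obp28a differed by 0.72 ± 0.27 (SE, limma adjusted p = 0.0757) and was higher on all 4 slides, by 1.01, 0.05, 1.56 and 0.27. It passed without replicate 2 of the brains labelled starved (adjusted p = 0.0448) or without replicate 4 of the brains labelled fed (0.0289), and its other probe differed by 0.33 (0.238). It also passed in 4 of 13 other settings: with array weights (adjusted p = 0.0177), in a fit over all 16 arrays (0.0225), with median centring (0.0329) and with another background correction (0.0458). The remaining genes were at -0.27 ± 0.23 for Obp83a, -0.19 ± 0.25 for Obp83b, -0.38 ± 0.22 for lush and -0.45 ± 0.26 for a10 (SE), with adjusted p between 0.205 and 0.583. Each of these 4 was lower in the array labelled starved on 3 slides and higher on slide 3. The probe tied to Obp83a only by an older name gave 0.21, the other sign. The median over the 7 genes was -0.27, beside -0.09 over all probes.

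Much of this spread was shared by the 7 genes. Replicate 2 of the brains labelled starved had the lowest level of all 7, and replicate 3 of the brains labelled fed had the lowest level of 6 of them, so that the mean of the 7 genes was -0.32 and 0.04 on those arrays, against 0.35 to 0.75 on the other brains labelled starved and 0.40 to 0.63 on the other brains labelled fed. Relative to the mean of the other 6 on the same array, Obp19d stood 2.0 to 2.67 above it in brains labelled starved and 0.72 to 1.26 in brains labelled fed. Obp84a stood at -4.65 to -4.23 in brains labelled starved and -3.70 to -3.36 in brains labelled fed. Obp28a (1.42 to 2.0 in brains labelled starved, 0.44 to 1.21 in brains labelled fed) and a10 (1.16 to 1.49 and 1.63 to 1.86) did not overlap either. The remaining genes overlapped. These relative values again balance over the 7 genes. The measure was chosen after the values were seen, and no share over all probes was made for it. By their own levels Obp28a and a10 overlapped between the conditions in brain.

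Markers of other cell types also differed between the conditions. All 5 fat body genes tested were higher in brains labelled starved, and the summed signal of the list of 7 was 97.8 to 175 times the 75th percentile there and 29.6 to 52.4 times in brains labelled fed; 1 of the 7 was above background on no brain array. In antennae the sum for the same list was 11.5 to 31.5 in arrays labelled starved and 10.9 to 25.6 in arrays labelled fed, with apolpp called higher (1.10) among 4 tested. The sum for 5 gut enzyme genes ran from 0.230 to 0.536 in antennae labelled starved and from 0.646 to 107 in antennae labelled fed, with 2 of 4 tested called lower. Of 14 brain peptide genes 6 were tested in antennae, and 4 were called lower in arrays labelled starved: Pdf (-3.84), AstA (-1.85), NPF (-1.22) and Dh44 (-0.75). Their sum was 0.662 to 1.29 in antennae labelled starved and 0.666 to 3.31 in antennae labelled fed, and 4 of the 14 were above background on no antennal array labelled starved. In brain 3 of the 14 were called higher. Of 4 muscle genes, up was called lower in both tissues (-1.87 in antennae, -1.23 in brain) and Mlc2 higher in brain (0.81), with sums of 22.0 to 59.4 in antennae labelled starved, 32.3 to 53.4 in antennae labelled fed, 18.6 to 24.2 in brains labelled starved and 10.4 to 16.6 in brains labelled fed. None of 9 photoreceptor genes was called in either tissue, and of 3 pan-neuronal genes nSyb was called lower in both (-0.75 in antennae, -0.58 in brain). Of 10 olfactory neuron genes, 5 were called higher and none lower in antennae labelled starved, with a summed signal of 41.1 to 43.0 there and 34.2 to 40.9 in antennae labelled fed; in brain 2 of 7 tested were called lower. The part of these cell types in the results was not tested.

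Whether the change differed between antennae and brain was tested over all 16 arrays, and none of the 7 genes passed. The difference of the 2 changes was -0.75 ± 0.29 (SE) for Obp19d, the lowest adjusted p (0.197), and 0.51 ± 0.29 for Obp84a (adjusted p = 0.421), with the others at adjusted p between 0.413 and 0.860 (limma). Of all 22784 probes tested, 2.96% passed. With arrays weighted by their spread, Obp19d differed by -0.99 (adjusted p = 0.0418).

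Between tissues, all 7 genes were higher in antennae than in brain under both labels. In arrays labelled starved the differences were 5.99 for Obp19d, 6.17 for Obp28a, 7.70 for Obp83a, 5.85 for Obp83b, 7.39 for lush, 8.42 for Obp84a and 6.37 for a10, each with an SE of 0.16 to 0.26. In arrays labelled fed they were 6.74 (107-fold), 6.63 (99.0-fold), 7.28 (155-fold), 5.70 (52.1-fold), 7.17 (144-fold), 7.92 (242-fold) and 5.82 (56.6-fold) in the same order of genes, each with an SE of 0.11 to 0.25. All were called, with limma adjusted p of at most 7.65e-08. Of all probes tested, 35.9% were called higher in antennae in the arrays labelled starved and 33.1% in those labelled fed, where 41.8% were called lower.

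The antenna-to-brain difference of Obp84a was among the largest on the array. It ranked 9 of 21471 probes in the arrays labelled starved and 10 of 22624 in the arrays labelled fed, where Obp83a ranked 52, lush 65, Obp19d 126, Obp28a 151, a10 280 and Obp83b 307. The brain signal of Obp84a was dim, at 42.7 to 133 in arrays labelled starved and 107 to 156 in arrays labelled fed. The median over the 7 genes was 6.37 in arrays labelled starved, beside -0.07 over all probes, and 6.74 in arrays labelled fed, beside -0.13. The probe tied to Obp83a only by an older name gave smaller differences, of 5.01 in arrays labelled starved and 5.07 in arrays labelled fed, where it ranked 443. In arrays labelled fed this probe averaged 8.03 in antennae and 2.96 in brain. The reported probe of Obp83a averaged 8.01 and 0.73 there, so the difference and its rank depended on the probe.

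**Figure D3:**
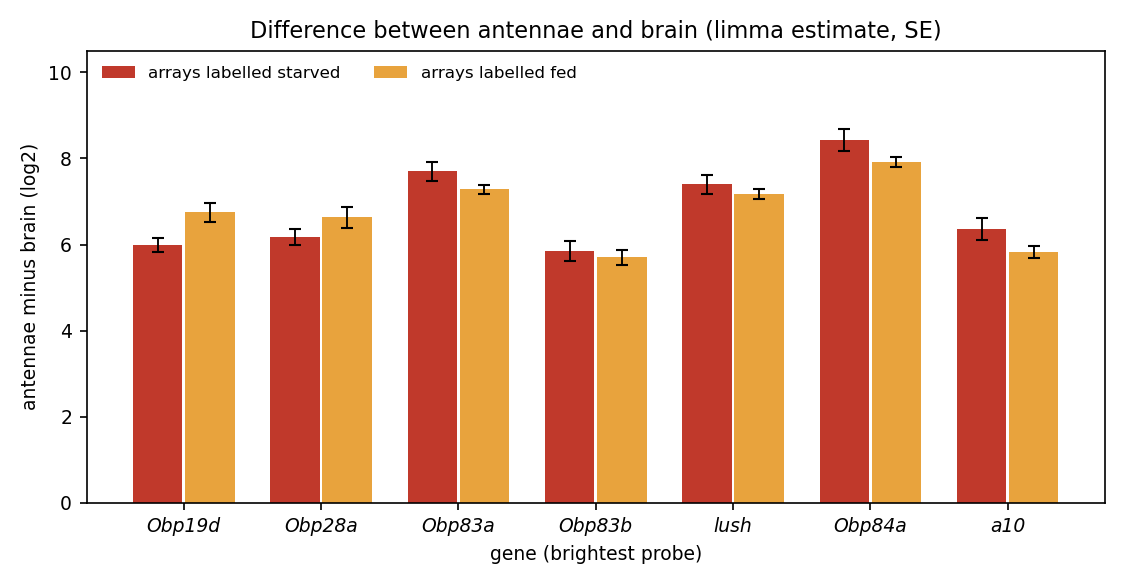
Log2 difference between antennae and brain for each gene's brightest probe, in arrays labelled starved (left bar of each pair) and fed (right bar), with the limma SE. Obp84a has the tallest bars, at 8.42 and 7.92, and every gene exceeds 5.

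The brain signal was nevertheless above background for all 7 genes. By the reported probes, medians over the brain arrays lay between 0.296% (Obp84a) and 1.99% (Obp83b) of each gene's antennal level in arrays labelled starved. In arrays labelled fed they lay between 0.429% and 1.90%, for the same genes. Olfactory neuron genes, whose neurons have their cell bodies in the antenna, gave medians over the same arrays of 0.281% to 33.1% (starved) and 0.494% to 123% (fed), the upper end being Ir76b, a co-receptor that is also used outside the antenna. Only 5 of these 10 genes were above background on all 4 brains labelled starved and 7 on all 4 brains labelled fed, and under each label 2 were above it on none, so percentages of the genes not detected there are upper bounds. Orco, the co-receptor of the odorant receptors, stood at 0.576% (starved) and 0.664% (fed). The probe tied to Obp83a only by an older name is outside these percentages. Its antennal level was 32.2-fold (starved) and 33.5-fold (fed) its brain level, against 208-fold and 155-fold by the reported probe of Obp83a.

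The median over the 7 members was 0.717% on replicate 2 of the brains labelled starved and 1.15% to 1.53% on the other 3, and 0.623% on replicate 3 of the brains labelled fed and 0.938% to 1.24% on the other 3. Among the 5 neuron genes above background on every brain array, 3 were lowest on that replicate of the brains labelled starved. On that replicate of the brains labelled fed 2 were lowest, as on replicate 4. The median over these 5 genes was lowest on neither array. It was 0.858% on the first, against 0.720% on replicate 1 of the brains labelled starved. On the second it was 0.855%, against 0.822% on replicate 2 of the brains labelled fed. On each brain array this median was the value of Ir25a alone. Orco was lowest on both arrays, at 0.397% on the first and 0.519% on the second, and so was Or88a (1.14% and 2.40%). Or47b was lowest on the first only (0.176%), and Ir25a and Ir76b on neither. Antennal tissue carried over into the brain samples was not tested as a source of this signal.

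**Figure D4:**
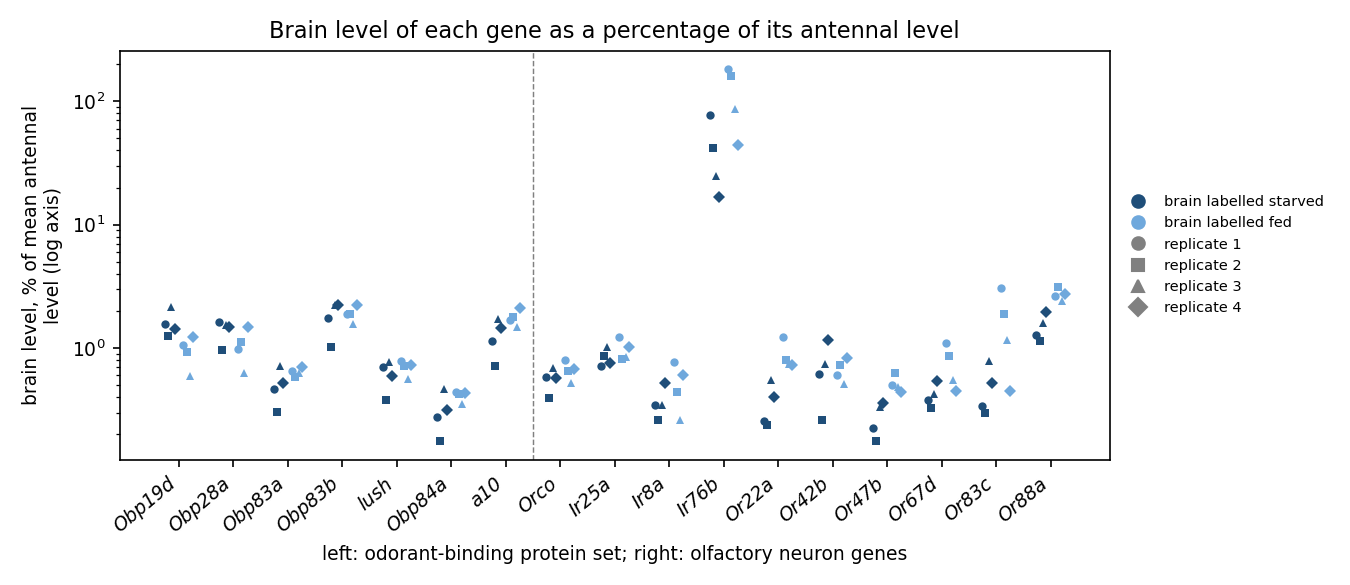
Level of each gene on each brain array as a percentage of its mean antennal level under the same label (log axis), for the 7 genes, left of the dashed line, and 10 olfactory neuron genes, right of it. By their reported probes the 7 genes lie between 0.177% and 2.25%, and several neuron genes beside them are at background in brain. Ir76b lies apart at 16.9% to 182%.

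The 46 other genes named Obp give the setting of the family, which includes taste and body proteins; counts for this and the following lists were made with the 75th percentile scaling alone. In antennae 34 were tested: 3 were called higher in arrays labelled starved, led by Obp59a (0.78) and Obp57b (0.54), 4 lower, led by Obp56c (-1.91) and Obp58c (-0.89), and 27 were not called, with a median of -0.06. In brain 30 were tested: 10 were called higher, led by Obp99b (2.96), Obp99a (2.27) and Obp99c (1.38), and 1 lower, Obp57e (-0.80), with a median of 0.14. Of the 34 tested in arrays labelled fed, 21 were called higher in antennae than in brain, led by Obp69a (7.64) and Obp19a (7.63), and 5 lower, led by Obp44a (-4.95) and Obp56h (-2.63). Their median difference was 2.02. Obp19c, which lies next to Obp19d on the X chromosome, differed by -0.30 (adjusted p = 0.111) in antennae and 0.71 (adjusted p = 0.00333) in brain.

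**Figure D5:**
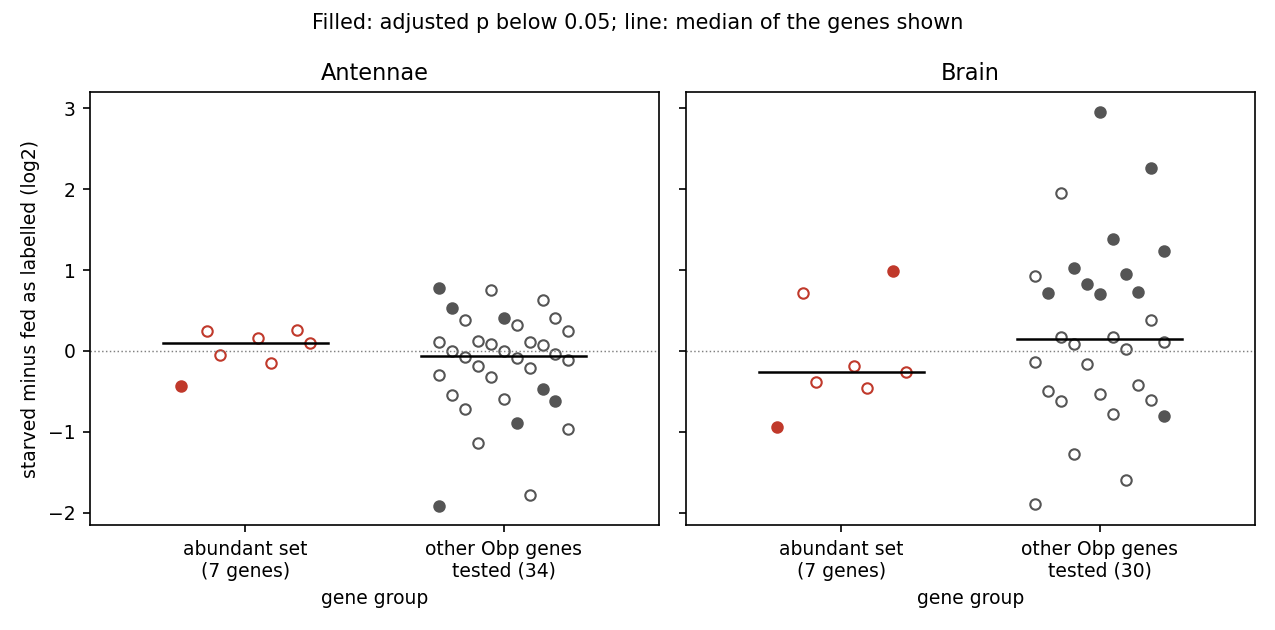
Log2 difference between arrays labelled starved and fed for the 7 genes and for the other Obp genes tested, in antennae (34 others) and brain (30 others); filled points have an adjusted p below 0.05 and lines are medians. The 7 genes lie between -0.43 and 0.26 in antennae, and the other Obp genes between -1.91 and 0.78.

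Of the 3 other OS-D family genes read, Phk-3 was called higher in arrays labelled starved in antennae (0.51) and in brain (1.42), PebIII was called higher in brain (0.92) and stood at 0.37 in antennae (adjusted p = 0.0524), and CG30172 was called lower in antennae (-0.82) and stood at -0.25 in brain (adjusted p = 0.0519). None of the 3 passed the test of the difference between tissues (adjusted p of 0.0652 to 0.274).

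Genes of the sensillum's support cells and of odorant clearance were read from a list of 8. In antennae Amt, the ammonium transporter of auxiliary cells (0.52), and sv, a Pax-family regulator of sensory-organ cells (0.32), were called higher in arrays labelled starved, and nompA, an extracellular protein of support cells, lower (-0.40). Snmp1 (0.12), Est-6 (0.13), Jhedup (0.01), pros (0.22) and Su(H) (0.02) were not called. In brain 1 of the 8 was called, the esterase gene Est-6 (1.23). All but pros were called higher in antennae than in brain in arrays labelled fed, from 3.10 for Su(H) to 7.25 for Amt.

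The genes whose pattern over the 16 arrays was most like the mean of the 7 were Jhedup, an antennal esterase (Pearson r = 0.9996), GstE4, a glutathione transferase (0.9996), Obp69a (0.9995), a transcript with no gene match (0.9994) and Orco (0.9994), among 14041 genes and unmatched probes compared. The points fall into the 2 tissues, so these values mainly restate the antenna-to-brain difference. With group means removed, over the 8 antennal arrays, the highest were PTPMT1 (0.968), a mitochondrial phosphatase gene, and CG9497 (0.964), beside 3 probes with no gene match. Their values are a description over arrays that share slides, with no test.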

How the data were processed

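The authors hybridised cyanine 3-labelled cRNA to one-colour Agilent arrays and deposited Agilent Feature Extraction 9.1 output, in which the processed signal is a background-subtracted intensity, and a table of log2 values. That deposited log2 table equalled the log2 intensity less 1 constant per array, and the deposited flag columns of the scanner files (outlier, saturation, well above background; unit other) were used as given. Per the methods the authors scaled to the 75th percentile in GeneSpring and tested with a t-test.

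Here the 75th percentile over 43603 non-control spots was subtracted from the processed intensity of each spot on the log2 scale, outlier spots were left out and spots of a probe averaged. A probe was tested where 1 of the groups compared had 50% or more of its spots well above background on each of its 4 arrays. Each comparison was fitted with limma 3.58.1 (lmFit, eBayes; R 4.3.3), two-sided, with Benjamini-Hochberg adjustment over all tested probes at 0.05. Single differences were also tested with an exact permutation test (scipy 1.17.1). Of 32162 probes, 20868 matched 13186 genes of the RefSeq Release 6 table. The number of arrays limits the precision. The script was tested on simulated data.

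Groups came from the labels. Named were all 7 members with all 9 probes that their name or CG number gave, the 5 genes most like their mean by 2 measures, and up to 4 of the largest called changes of each gene list. The members and lists were chosen with earlier results of these data known. Alternatives were the replicate block, the methods' t-test, other filters, background corrections and scalings, the deposited table, gene means, array weights, 1 fit over all arrays and leaving out each array. Probe sequences and coordinates were not used here.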

Additional observations from a re-analysis of the deposited data

How the results depend on the processing

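The call of all 7 genes as higher in antennae than in brain held under every alternative run and in every fit that left out 1 array, under both labels. Over the alternatives other than leaving out an array, 419 differences of single genes kept their direction and side of the threshold. Of the rest, 9 became stronger, 7 weaker and 6 reversed, and causes were not tested. The setting with the probe of the older name changes Obp83a alone, so the remaining genes are counted there as kept by construction. In antennae the count of genes called was 1 in all 8 fits without 1 array, 2 with quantile normalization (Obp28a, Obp84a), 3 with arrays centred on the median (Obp19d, Obp28a, Obp83a) and 0 in 1 fit over all 16 arrays, where Obp84a had an adjusted p of 0.134. In brain it was 1 to 3 without 1 array, 1 with quantile normalization and 1 with the methods' t-test (Obp19d each time), and 3 with array weights, with another background correction and in a fit over all 16 arrays, where Obp28a was added; with median centring it was 2, Obp19d and Obp28a. The difference between tissues gave 1 call with array weights. Directions that turned were those of small differences. In antennae Obp83b was 0.21 and lush 0.10 with median centring, and Obp83b ran from -0.14 to 0.053 without 1 array. In brain Obp83b was 0.073 with median centring and ran from -0.32 to 0.065 without 1 array, and Obp83a was 0.21 by the probe of the older name. For the difference between tissues Obp83b was -0.031 with array weights and ran from -0.11 to 0.27 without 1 array, and Obp83a was -0.057 by the probe of the older name. The methods' t-test and the fit over all arrays were not run for the difference between tissues, whose own fit already holds all 16 arrays.

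Arrays of the same replicate number shared a slide. Their deviations from the group means correlated by -0.08 to 0.12 in antennae and -0.33 to 0.30 in brain, so the numbers were not taken to pair the extracts. With the replicate number as a block, the count in brain was 0 and that in antennae stayed at 1; the block changed no other count of calls among the 7 genes.

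All 7 genes were well above background on every array, but Obp84a was dim in brain. Its signal was 42.7 to 133 in brains labelled starved and 107 to 156 in brains labelled fed. The median signal of those arrays was 91.6 to 111 and 94.4 to 126. In addition, 4 arrays a group cannot give an exact permutation p below 0.0286.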
